A study of Drosophila melanogaster with 14 samples.

Results

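The genes described here were the 100 whose mRNA isoforms were used most differently among the γ, α′/β′ and α/β classes of Kenyon cells, the intrinsic neurons of the Drosophila mushroom body. The share of a transcript was its TPM, an abundance scaled to transcript length and library total, as a percent of the summed TPM of its gene in the same library. Shares were averaged over the 4 γ, 4 α′/β′ and 6 α/β libraries, and each gene was ranked by the largest difference in mean share that any of its transcripts showed between a pair of classes. Ranked were the 1068 genes with at least 2 annotated transcripts and at least 50 TPM in each of the 14 libraries, with cpx, Fas2 and trio left out, and the first 100 were taken. The genes were thus chosen by their transcript shares in these 14 libraries. These 100 genes had 564 of the 30484 transcripts in the table, which covered 13931 genes. Class differences in share are therefore given as a description without a test.

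Nuclear RNA had been purified from 7 Kenyon cell subtypes, with 2 libraries each, by TAPIN-seq, in which tagged nuclei are captured from frozen heads. The split-GAL4 driver was MB607B for γd, MB131B for γm+d, MB370B for α′/β′ap+m, MB418B for α′/β′m, MB371B for α/βp, MB185B for α/βs and MB594B for α/βc. In every group the driver was crossed to the nuclear tag P{5XUAS-unc84::2XGFP}attP40 in MJ2, an isogenic Canton-S derivative carrying w1118 isoCJ1. The 400 heads per library came from flies of both sexes, 2 to 5 days old, that received no treatment. MB131B also labels γd cells and MB370B also labels α′/β′m cells, so that within each of these classes the subtypes overlap, and every driver labels a few cells outside the mushroom body. The study describes the 2 libraries of a subtype as independent biological replicates. The p-values for transcript usage measure the spread between such libraries. Those for gene levels measure the spread over all libraries of a class, which includes differences between its subtypes.

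Most Kenyon cells receive olfactory input in the calyx of the mushroom body. The 3 classes of Kenyon cells send axons into different lobes and take different parts in the formation and retrieval of olfactory memory. A gene can give several transcripts through alternative promoters, alternative splicing and alternative polyadenylation sites. Neurons use all of these, and RNA-binding proteins such as Elav, the Bruno (CELF) family and the Musashi family act on splicing, on the 3′ end or on the translation of neuronal transcripts. Alternative promoters and exons can change the protein, whereas alternative 3′ ends often leave the protein as it is and change the untranslated region.

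The libraries were not equal in complexity, and read depth cannot be recovered from TPM. The γd libraries had 5632 and 7601 genes above 0 and the α/βp libraries had 6534 and 9602, against 8836 to 11359 in the other 10. Of the 564 transcripts of the 100 genes, 258 and 193 were listed at 0 in the γd libraries and 225 in α/βp replicate 1, against 136 to 165 in the other 11 libraries. Between 3 and 41 of 84 ribosomal protein genes were also listed at 0 in a library, so that a 0 here can be a failed estimate. Summed TPM of 9 Kenyon cell marker genes was 10672 to 13157 in γ, 8552 to 9150 in α′/β′ and 8739 to 13178 in α/β libraries. The pan-neuronal gene elav was at 1030 to 1914 TPM and the Kenyon cell gene ey at 631 to 2854 TPM, whereas the glial gene repo was between 0 and 2.18 TPM. The whole list of 10 glial markers summed to 49.8 to 314 TPM, with Gs2 the highest, at 22.8 to 144 TPM. Markers of photoreceptors summed to 477 to 1133 TPM in γ, 1082 to 2353 TPM in α′/β′ and 1400 to 4188 TPM in α/β libraries. The fat body list summed to 423 to 1331, 574 to 1976 and 1644 to 6117 TPM in γ, α′/β′ and α/β libraries. Few genes carried most of these sums. In the photoreceptor list, medians over the libraries were 914 TPM for ninaE, 382 TPM for norpA and at most 25.7 TPM (Arr2) for the others. In the fat body list Yp1 had a median of 1131 TPM and Yp2 of 286 TPM. Fbp1 and Fbp2 were each listed at 0 in 13 libraries, the gene to in 11 and fit in 10. The part of other cells in the isoform shares was not tested.

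The largest class difference in mean share was between 27.8 and 76.8 percentage points in the 100 genes, with a median of 33.2 points, against a median of 12.3 points in the other 968 ranked genes. Tnpo, lig and glo lay just inside the limit at 27.9, 27.8 and 27.8 points, and RIC-3, MED26 and akirin lay just outside at 27.7, 27.7 and 27.4 points. The pair with the largest difference was γ against α′/β′ in 46 genes, γ against α/β in 39 and α′/β′ against α/β in 15. In the other 968 ranked genes the pair with the largest difference was spread much alike, at 451, 353 and 164 in the same order. The most abundant transcript differed between the classes of that pair in 69 of the 100 genes, against 19.0% of the other genes. The gain of the leading transcript was taken up by a single counterpart transcript to at least 90% in 38 genes. The same held for 343 of the other 968 ranked genes. The genes had a median of 5 transcripts, against 4 in the other ranked genes, and a median of mean gene levels of 269.5 TPM, against 333 TPM.

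The name of a shift between classes held for only some of these genes. In 36 of the 100 the libraries of the 2 classes had separate ranges, so that every library of one class was above every library of the other. The ranges were separate in 73 of the other 968 genes and in 10.2% of all ranked genes, and because the rule used the same differences nothing is read from this contrast. In the other 64 genes the ranges overlapped, and in 49 of the 100 the mean difference between the replicates of a subtype was more than 50% of the class difference. The latter was so in 85.4% of the other 968 genes, whose class differences were smaller by the rule. The median difference between replicates was 16.5 points in the 100 genes, against 11 points in the other ranked genes.

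**Figure D1:**
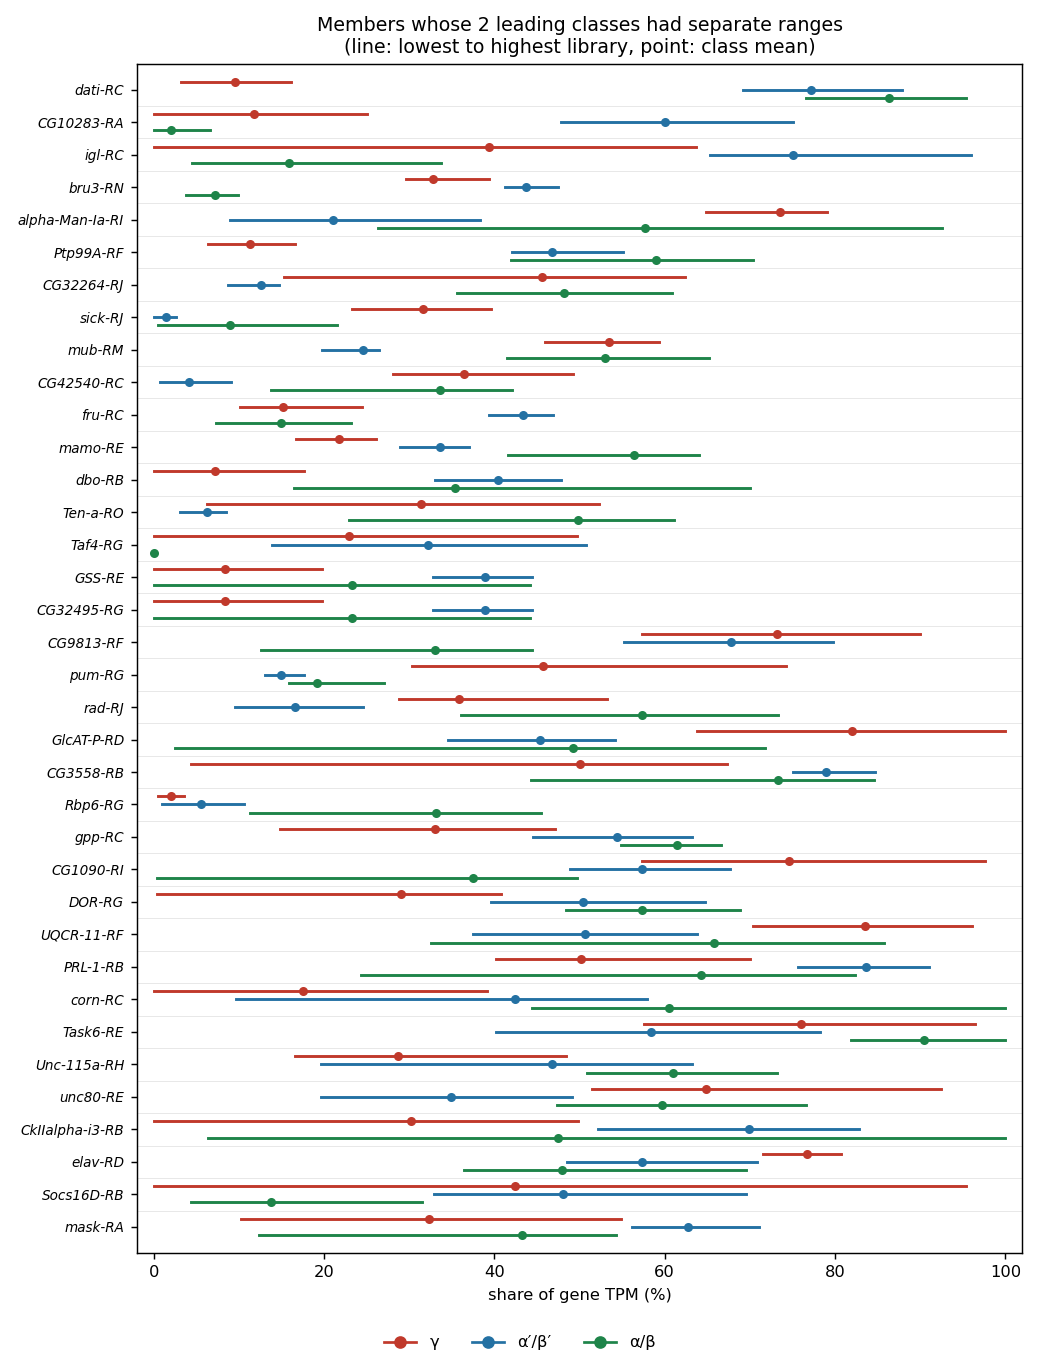
Share of the leading transcript (percent of the gene's TPM, horizontal axis) in the 36 genes whose leading classes had separate ranges, one gene per row. For each class the bar spans the lowest to the highest library and the point is the mean; dati had the widest gap, 60.5 points, and the gaps below 2 points were those of mask and Socs16D.

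Among transcription factors, dati, which encodes a zinc-finger protein, had the largest difference of all 1068 genes. The transcript dati-RC took 4.04% and 3.24% of dati TPM in the γd libraries and 16.1% and 15% in the γm+d libraries. It took 70.2% and 69.2% in α′/β′ap+m, and 87.9% and 81.2% in α′/β′m. Among α/β libraries it took 95.4% and 90.4% in α/βp, 88.1% and 89.7% in α/βs, and 78.1% and 76.5% in α/βc. All 4 γ libraries were far below all 10 other libraries, with means of 9.58% ± 6.89 (SD over the 4 libraries) for γ, 77.1% ± 8.98 for the 4 α′/β′ and 86.4% ± 7.46 for the 6 α/β libraries. Its counterpart dati-RD took 79.4% ± 7.87, 10.0% ± 1.69 and 3.79% ± 1.52 in the same classes. The difference of dati-RC between γ and α/β was -76.8 points, and without any single library it was at least as wide as -74.7 points. The gene as a whole was at 1013 ± 179 TPM in γ, 1587 ± 274 TPM in α′/β′ and 1689 ± 461 TPM in α/β libraries, with no 2-fold difference called. dati lies on chromosome 4 (375640 to 395605, minus strand), the start sites of dati-RC and dati-RD are 7283 bases apart, and their coding sequences are 3453 and 2376 bases long.

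The BTB zinc-finger gene mamo combined a change in isoform with a large change in level. mamo-RE took 16.7% and 20.2% in γd, 26.1% and 24.1% in γm+d, 37.0% and 36.9% in α′/β′ap+m and 31.6% and 28.9% in α′/β′m. In α/β libraries its share was 47.1% and 41.6% (α/βp), 64.0% and 62.9% (α/βs), and 63.9% and 59.0% (α/βc). The 3 classes had separate ranges in the order γ, α′/β′, α/β, and within α/β the α/βp libraries were the lowest. Mean shares were 21.8% ± 4.17 in γ, 33.6% ± 4.02 in α′/β′ and 56.4% ± 9.67 in α/β. In TPM the order was another one, because the gene itself was much lower in α/β: mamo-RE was at 663 ± 359 TPM in γ, 1605 ± 523 TPM in α′/β′ and 70.5 ± 38.8 TPM in α/β. A share and a level of the leading transcript that differed in opposite directions were found in 6 of the 100 genes, which were GlcAT-P, CG14989, mamo, MCU, unc80 and glo. The counterpart mamo-RC starts 55488 bases and ends 24837 bases away from mamo-RE on the X chromosome (13846116 to 13990527, minus strand), with coding sequences of 2400 bases in mamo-RC and 3264 bases in mamo-RE.

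fru, another BTB zinc-finger gene, known for its role in male courtship, differed in α′/β′. fru-RC took 10.1% and 11.7% in γd, 14.3% and 24.4% in γm+d, 46.0% and 46.9% in α′/β′ap+m, and 41.0% and 39.4% in α′/β′m. In the α/β libraries it took 23.2% and 16.3% (α/βp), 14.0% and 7.30% (α/βs), and 11.2% and 17.8% (α/βc). In share, all 4 α′/β′ libraries were above all others, with means of 15.1% ± 6.43, 43.3% ± 3.70 and 14.9% ± 5.49 in γ, α′/β′ and α/β. In TPM, fru-RC was highest in γ, at 373 ± 76.1 TPM, against 162 ± 54.4 TPM in α′/β′ and 99.8 ± 56.1 TPM in α/β. fru-RH was listed at 0 in all 4 α′/β′ libraries and averaged 9.53% in γ and 10.3% in α/β. These transcripts end 7243 bases apart and have coding sequences of 2565 bases in fru-RC and 2088 bases in fru-RH (chromosome 3R, 18414273 to 18545586, minus strand).

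Taf4 encodes a subunit of the general transcription factor TFIID. Taf4-RG was listed at 0 in 5 of 6 α/β libraries and took 0.0194% in the sixth, α/βc replicate 2. It took 0% and 19.0% in γd, 23.2% and 49.7% in γm+d, 30.7% and 33.2% in α′/β′ap+m, and 13.9% and 50.8% in α′/β′m. The α′/β′ and α/β ranges were separate, but the spread within γ and within α′/β′ was wide, with means of 23.0% ± 20.5 and 32.1% ± 15.1. Taf4-RE, which holds 378 bases that Taf4-RG lacks, took 66.4%, 50.5% and 81.6% in γ, α′/β′ and α/β. dac, a nuclear factor required for mushroom body development, was at 65.3% ± 39.8, 47.4% ± 16 and 24.2% ± 14.3 for dac-RA in γ, α′/β′ and α/β, with overlapping ranges. For the histone methyltransferase gene gpp, of the Dot1 type, gpp-RC took 33.0% ± 13.4, 54.4% ± 10.0 and 61.4% ± 4.83, and the γ and α/β ranges were separate by 7.68 points.

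**Figure D2:**
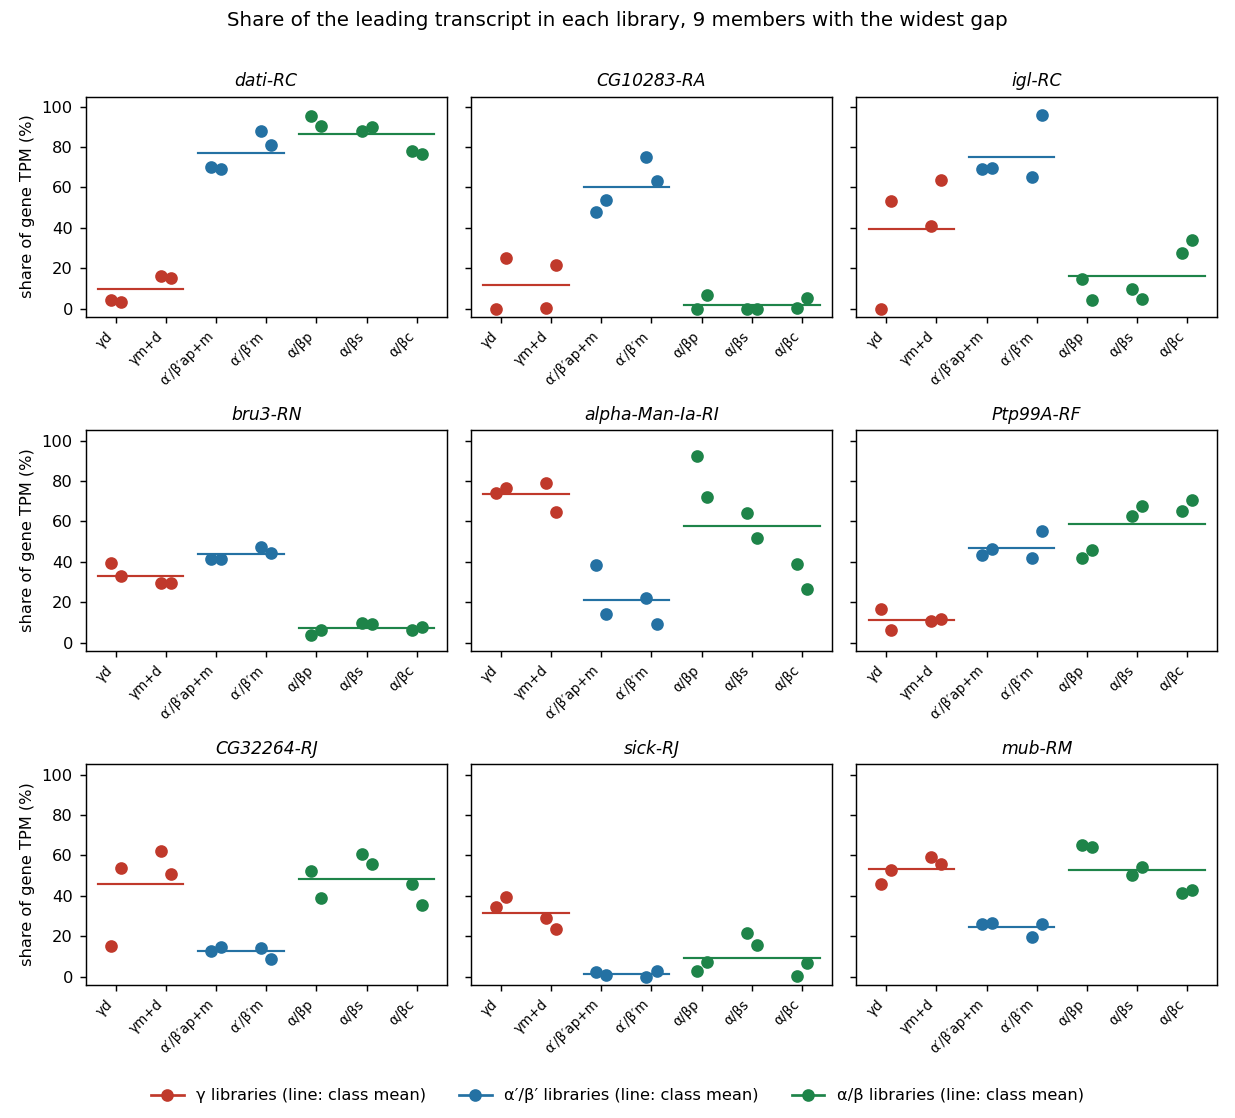
Share of the leading transcript (percent of the gene's TPM, vertical axis) in each of the 14 libraries for the 9 genes with the widest gap between class ranges, 1 panel per gene, libraries ordered by subtype and coloured by class. In dati and Ptp99A the 4 γ libraries lie below the rest, in bru3 the 6 α/β libraries lie below the rest, and in mub the 4 α′/β′ libraries lie below the rest.

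Several genes of the set encode RNA-binding proteins. bru3 belongs to the Bruno (CELF) family, and bru3-RN had close values within each class. It took 39.4% and 32.8% in γd, 29.6% and 29.6% in γm+d, 41.5% and 41.3% in α′/β′ap+m and 47.5% and 44.4% in α′/β′m. In α/β libraries it took 3.73% and 6.4% (α/βp), 9.83% and 9.35% (α/βs), and 6.19% and 7.66% (α/βc). All α/β libraries were thus below 10% and all others above 29%, with means of 32.8% ± 4.59 in γ, 43.7% ± 2.95 in α′/β′ and 7.19% ± 2.26 in α/β. The counterpart bru3-RJ took 16.6%, 7.92% and 28.2% in γ, α′/β′ and α/β. The 2 transcripts start 131778 bases apart on chromosome 3L (13521907 to 13803400, minus strand) and their annotated coding sequences differ widely, with 1212 bases in bru3-RN and 150 bases in bru3-RJ.

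mub encodes a KH-domain RNA-binding protein and was, on average, at 7266 TPM. mub-RM took 45.9% and 52.9% in γd, 59.3% and 55.5% in γm+d, 25.8% and 26.5% in α′/β′ap+m, and 19.8% and 26.1% in α′/β′m. It took 65.2% and 64.3% in α/βp, 50.1% and 54.3% in α/βs, and 41.4% and 42.6% in α/βc. The α′/β′ libraries were the 4 lowest, with means of 53.4% ± 5.63, 24.6% ± 3.18 and 53.0% ± 10.3 in γ, α′/β′ and α/β. The difference was mirrored by mub-RC, at 23.9% and 23.9% in α′/β′ap+m and 18.1% and 17.3% in α′/β′m, against at most 2.77% in any of the other 10 libraries. mub-RM and mub-RC start 34789 bases apart on chromosome 3L (21844788 to 21932702, plus strand) and have coding sequences of 1080 and 1095 bases.

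Rbp6 is a Musashi-family gene. Rbp6-RG took between 0.484% and 3.55% in the γ libraries and between 11.3% and 45.5% in the α/β libraries, with means of 2.06% ± 1.25 in γ, 5.58% ± 5.34 in α′/β′ and 33.2% ± 13.5 in α/β. It starts 90243 bases away from its counterpart Rbp6-RE. pum encodes a translational repressor that binds 3′ untranslated regions, and pum-RG took 45.7% ± 19.5, 14.9% ± 2.29 and 19.2% ± 4.13 in γ, α′/β′ and α/β, with a gap of 12.7 points between the γ and α′/β′ ranges and a start site 79075 bases from that of pum-RH. In elav, the pan-neuronal RNA-binding protein gene on the X chromosome (509235 to 523226, minus strand), the isoforms differ at the 3′ end. elav-RD, which has the same coding sequence of 1452 bases as elav-RA and 8001 further bases at its 3′ end, took 76.7% ± 3.97 in γ, 57.4% ± 10.7 in α′/β′ and 48.0% ± 12.1 in α/β. elav-RA took 1.42%, 22.1% and 28.9% in γ, α′/β′ and α/β, and the gap between the γ and α/β ranges of elav-RD was narrow, at 2.00 points. Ssu72, which encodes a phosphatase of RNA polymerase II, had overlapping ranges with 34.7% ± 43.6, 76.0% ± 42.9 and 77.9% ± 34.8 for Ssu72-RA, and so had the hnRNP F/H gene glo, with 65.8% ± 27.0, 39.6% ± 3.0 and 38% ± 8.01 for glo-RB.

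Among cell surface proteins, the receptor tyrosine phosphatase gene Ptp99A had the widest gap. Ptp99A-RF took 16.6% and 6.33% in γd, 10.6% and 11.7% in γm+d, 43.4% and 46.6% in α′/β′ap+m, and 42.0% and 55.1% in α′/β′m. It took 41.9% and 45.8% in α/βp, 62.5% and 67.8% in α/βs, and 65.0% and 70.4% in α/βc. γ libraries were lowest throughout, with means of 11.3% ± 4.22, 46.8% ± 5.87 and 58.9% ± 12 in γ, α′/β′ and α/β, and the α/βp libraries lay closer to the α′/β′ libraries than to the other α/β libraries. Ptp99A-RA took 34.1%, 11.8% and 8.38% in γ, α′/β′ and α/β. The 2 transcripts start 79924 bases apart on chromosome 3R (29377646 to 29487131, plus strand), with coding sequences of 4194 bases in Ptp99A-RF and 3681 bases in Ptp99A-RA.

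Ten-a encodes a teneurin, a transmembrane protein known for matching synaptic partners in the fly olfactory system. Ten-a-RO took 6.21% and 36.6% in γd, 30.4% and 52.2% in γm+d, 8.43% and 7.50% in α′/β′ap+m, and 3.08% and 5.85% in α′/β′m. It took 22.9% and 57.2% in α/βp, 61.1% and 55.9% in α/βs, and 50.7% and 51.0% in α/βc. All α′/β′ libraries were below all α/β libraries, with means of 6.22% ± 2.35 and 49.8% ± 13.7, whereas γ spanned both at 31.3% ± 19.1. Ten-a-RN, which starts 75512 bases away, took 56.1%, 78.2% and 40.4% in γ, α′/β′ and α/β.

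Genes of axon growth, calcium signalling and glycosylation were also among those with wide gaps. sick, which acts on actin in the axonal growth of mushroom body neurons, had sick-RJ at 34.6% and 39.6% in γd and 29.1% and 23.3% in γm+d. sick-RJ was at 2.38% and 0.771% in α′/β′ap+m, and 0% and 2.55% in α′/β′m. It took 2.75% and 7.14% in α/βp, 21.5% and 15.5% in α/βs, and 0.500% and 6.45% in α/βc. γ was the highest class and α/βs lay between γ and the other subtypes, with class means of 31.7% ± 7.02, 1.43% ± 1.24 and 8.98% ± 8.0. Its counterpart sick-RF took 32.2%, 62.3% and 41.5% in γ, α′/β′ and α/β and starts 69571 bases away on chromosome 2L (19796365 to 19958424, plus strand).

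igl encodes a calmodulin-binding protein. igl-RC took 0% and 53.1% in γd, 40.8% and 63.7% in γm+d, 69.0% and 69.8% in α′/β′ap+m, and 65.3% and 95.9% in α′/β′m. Its α/β values were 14.8% and 4.48% in α/βp, 9.87% and 4.86% in α/βs, and 27.7% and 33.7% in α/βc. α′/β′ and α/β were separate by 31.6 points, with means of 75.0% ± 14.1 and 15.9% ± 12.2, and γ was spread between them at 39.4% ± 27.9. igl-RC and igl-RB have the same coding sequence of 369 bases and start 9483 bases apart on chromosome 2R (15155437 to 15190292, plus strand). When transcripts with the same coding sequence were summed, the difference between α′/β′ and α/β in igl was 0.677 points, against 59.1 points for igl-RC alone, and in bru3 the summing gave 51.1 points, against 36.5 points for bru3-RN alone.

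alpha-Man-Ia encodes a mannosidase that trims N-glycans. alpha-Man-Ia-RI took 73.9% and 76.3% in γd, 79.1% and 64.8% in γm+d, 38.4% and 14.3% in α′/β′ap+m, and 22.3% and 8.98% in α′/β′m. In α/β it was at 92.6% and 72.3% in α/βp, 64.1% and 51.8% in α/βs, and 38.8% and 26.4% in α/βc. The γ libraries were all above the α′/β′ libraries, with means of 73.5% ± 6.19 and 21.0% ± 12.8, and the α/β subtypes differed widely among themselves (57.6% ± 23.8). alpha-Man-Ia-RL, which starts 16851 bases away on the X chromosome (10266792 to 10325958, minus strand), took 7.33%, 34.2% and 12.3% in γ, α′/β′ and α/β. In GlcAT-P, which encodes a glucuronyltransferase, GlcAT-P-RD took 82.0% ± 14.8, 45.3% ± 8.09 and 49.3% ± 25.3, with γ and α′/β′ separate by 9.70 points.

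Of 4 further genes with wide gaps, 3 are named by annotation number. CG10283-RA took 0% and 25.1% in γd, 0.453% and 21.6% in γm+d, 47.8% and 53.7% in α′/β′ap+m, and 75.1% and 63.4% in α′/β′m. In α/β libraries it was at 0% and 6.6% (α/βp), 0% and 0% (α/βs), and 0.0707% and 5.25% (α/βc). All 4 α′/β′ libraries were above all others, with class means of 11.8% ± 13.4, 60.0% ± 11.9 and 1.99% ± 3.08 in γ, α′/β′ and α/β. CG10283-RC took 46.2%, 39.7% and 80.8% in γ, α′/β′ and α/β, and the start sites of these transcripts are 75 bases apart (chromosome 2L, 18472964 to 18484513, minus strand).

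CG32264-RJ took 15.3% and 53.9% in γd, 62.4% and 50.7% in γm+d, 12.5% and 14.8% in α′/β′ap+m, and 14.4% and 8.72% in α′/β′m. The α/β values were 52% and 38.8% in α/βp, 60.9% and 55.7% in α/βs, and 46.0% and 35.6% in α/βc. CG42540-RC took 49.2% and 28.1% in γd, 37.2% and 31.3% in γm+d, 9.02% and 5.47% in α′/β′ap+m, and 0.709% and 1.38% in α′/β′m. The α/β shares were 13.8% and 36.6% in α/βp, 33.7% and 38.9% in α/βs, and 36.5% and 42.1% in α/βc. Both were lowest in α′/β′, at means of 45.6% ± 20.8, 12.6% ± 2.76 and 48.2% ± 9.83 for CG32264-RJ and 36.4% ± 9.30, 4.15% ± 3.87 and 33.6% ± 10.1 for CG42540-RC in γ, α′/β′ and α/β. dbo, which encodes a Kelch and BTB domain protein, has 2 transcripts, and dbo-RB took 0% and 11.1% in γd, 0% and 17.6% in γm+d, 47.9% and 38.7% in α′/β′ap+m, and 42.0% and 33.0% in α′/β′m. Its α/β libraries were spread over 33.5% and 70.0% (α/βp), 50.6% and 16.5% (α/βs), and 20.7% and 20.9% (α/βc). The γ libraries were below all α′/β′ libraries in dbo, and 1 α/βs library, at 16.5%, lay within the γ range.

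In the channels of the set, unc80, a subunit of the NALCN sodium leak channel complex, had unc80-RE at 64.8% ± 19.0 in γ, 35.0% ± 12.4 in α′/β′ and 59.7% ± 11.7 in α/β. Its counterpart unc80-RD was at 20.9% to 25.8% in the 4 α′/β′ libraries and at 0.237% to 2.90% in the other 10, so that it set α′/β′ apart in every library. The two-pore potassium leak channel gene Task6 had Task6-RE at 76.0% ± 17, 58.3% ± 15.6 and 90.5% ± 6.10 in γ, α′/β′ and α/β, with α′/β′ and α/β separate by 3.63 points. sei, the fly ERG potassium channel gene, had sei-RB at 72.1% ± 34.4, 72.9% ± 19.5 and 27.8% ± 25.6, with overlapping ranges. GABA-B-R1, a subunit of the metabotropic GABA receptor, had GABA-B-R1-RC at 65.2% ± 40.4, 31.0% ± 5.49 and 28.1% ± 7.66, and the 2 γm+d libraries lay within the α′/β′ range (the values are given with the subtypes).

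All 5 presynaptic genes in the set had overlapping ranges. The endophilin gene EndoA had EndoA-RA at 67.5% ± 19.1, 50.9% ± 8.69 and 30.9% ± 20.9 in γ, α′/β′ and α/β. The RIM-binding protein gene Rbp had Rbp-RM at 34.8% ± 27.5, 1.30% ± 2.60 and 11.8% ± 28.9, and Vap33 had Vap33-RC at 47.7% ± 48.5, 16.8% ± 24.5 and 41.5% ± 40.9. The cysteine string protein gene Csp had Csp-RD at 9.64% ± 16.2, 17.5% ± 20.4 and 39.1% ± 23.2, and Rab3-GEF had Rab3-GEF-RJ at 36.8% ± 45, 8.28% ± 16.5 and 14.1% ± 27.6. The largest SD within a class was between 20.9 and 48.5 points in these 5 genes.

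The genes of the set on the functional lists of signalling and cytoskeletal genes had overlapping ranges as well. Genes outside these lists, such as sick and igl, are given above. Means in γ, α′/β′ and α/β were 71.2% ± 21.1, 35.8% ± 8.74 and 67.4% ± 13.8 for Abl-RJ of the tyrosine kinase Abl, and 22.6% ± 19.2, 52.8% ± 20.1 and 37.2% ± 22.3 for CkIalpha-RG of casein kinase I. Galphas-RB of a stimulatory G protein was at 9.58% ± 12.7, 16% ± 7.77 and 38% ± 28.7. norpA-RD of phospholipase C was at 21.8% ± 24.6, 54.4% ± 9.04 and 49.6% ± 22.4, and since norpA is also on the list of photoreceptor markers, whose sum was lowest in γ, the part of photoreceptor RNA in this value was not tested. Map205-RC of a microtubule-associated protein was at 67.9% ± 21.8, 33.3% ± 18.5 and 39.1% ± 26.3, and Rho1-RB of the small GTPase Rho1 at 47.1% ± 38.5, 71.0% ± 13.4 and 40.5% ± 20.7.

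Of the remaining genes with separate ranges, the memory gene rad (radish) had rad-RJ at 35.9% ± 11.7, 16.6% ± 6.85 and 57.3% ± 12.2 in γ, α′/β′ and α/β, with a gap of 11.5 points between α′/β′ and α/β. CG9813-RF was at 73.2% ± 13.4, 67.7% ± 10.1 and 33.0% ± 11 with a gap of 13 points. The glutathione synthetase gene GSS and its neighbour CG32495 had identical values in every library (8.32% ± 9.95, 38.9% ± 5.90 and 23.3% ± 16.5 for GSS-RE and for CG32495-RG), so these 2 near-identical copies cannot be told apart and count as 1 observation. DOR-RG was at 29.0% ± 19.2, 50.4% ± 10.7 and 57.3% ± 7.63. Gaps of 1.39 to 7.77 points separated the leading classes in CG3558, CG1090, UQCR-11 of the respiratory chain, the phosphatase gene PRL-1, corn, Unc-115a, CkIIalpha-i3, Socs16D and mask, in addition to gpp, DOR, Rbp6, unc80, Task6 and elav.

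High in the ranking but with overlapping ranges were Lerp, whose product sorts lysosomal enzymes, Ncoa6, Zip102B, CG42346, CG1965, Akap200, 2mit, ben, CG2246, dock, CG10353, Dmtn, CG44008, CG12950, tinc and Atg18a. In all of these but CG1965 the SD was largest in γ. Lerp-RB was at 59.7% ± 41.2 in γ, 13.7% ± 4.25 in α′/β′ and 11.6% ± 7.81 in α/β, and Ncoa6-RD at 67.8% ± 38.9, 26.5% ± 8.27 and 20.6% ± 19.0. CG2246-RC was at 40.5% ± 45.9, 0.00130% ± 0.00259 and 24.7% ± 23.9.

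In many genes the γ mean depended on the 2 γd libraries. Of the 85 genes whose leading pair held γ, 36 kept less than 50% of the difference without both γd libraries and 19 kept at least 80%, and the median share kept was 54.5%. The direction reversed in 7, among them CG44008 (-2.06 points without γd, against 38.3 points with all libraries), Vap33 (-10.4 against 30.8), Kul (-17.2 against 30.4), CG9636 (1.28 against -29.0), HnRNP-K (-0.605 against 28.6) and Rab3-GEF (-7.72 against 28.5). The 26 genes with separate ranges and γ in the pair kept a median of 74.7%, with 11 of them at 80% or more and 0 below 50%, against a median of 38.2% in the 59 with overlapping ranges. dati kept -70.9 points, Ptp99A -47.8, alpha-Man-Ia 51.0, mub 32.8, dbo -31.6, mamo -31.3, CG42540 30.1, elav 28.1, sick 24.8 and pum 24.2 points.

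Single libraries carried 12 of the 100 differences to the extent that less than 50% was left without them, against 47.7% in the other ranked genes. For 10 genes this library was γd replicate 1, which had the fewest genes of all 14. Without it the difference was 18.2 points in Atg18a, 14.1 in fzr, 13.4 in Vap33, 12.9 in Kul, 11.5 in Gie, 9.70 in Rab3-GEF, 7.94 in CG14995, 5.96 in Tnpo, -13.6 in CG3558 and -13.9 in CG9636. For CG34355 and CG17124 it was γd replicate 2, without which 10.7 and 12.4 points were left. For 51 of the 100 genes the difference was smallest without γd replicate 1, and the same held for 494 of all 1068 ranked genes. Because the rule took the largest differences, nothing is read from the 12 genes against the other ranked genes.

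**Figure D3:**
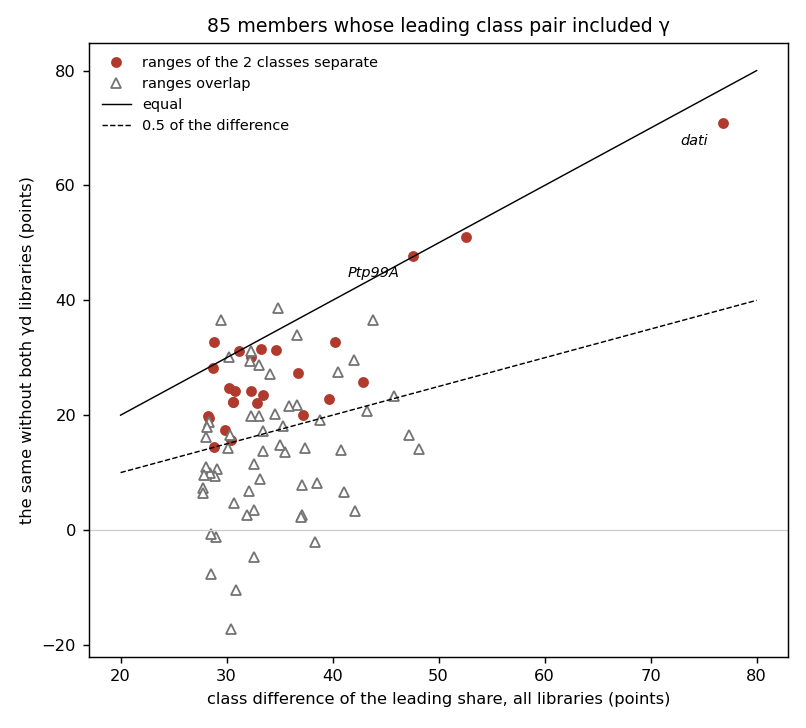
Class difference of the leading transcript (percentage points) with all libraries on the horizontal axis (plotted as its size) and without both γd libraries on the vertical axis (negative where the direction reversed), for the 85 genes whose leading pair holds γ, with genes of separate ranges marked apart from the others. Points near the diagonal, such as dati and Ptp99A, kept their difference, and the 7 points below 0 on the vertical axis reversed.

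The leading and the counterpart transcript differed in all parts of the gene model. Of the 99 genes found in the annotation, the start site differed by more than 50 bases in 42, the 3′ end in 34 and neither end in 38, and the coding sequence differed in 60. In the other 959 ranked genes the start site differed in 42.1%, the 3′ end in 56.8%, neither end in 23.4% and the coding sequence in 63.4%. Retained introns distinguished the pair in 13 of the 99 genes, against 12% of the other genes. Of the 36 genes with separate ranges, 18 differed at the start site, 9 at the 3′ end and 29 in the coding sequence. The sequence that told the 2 transcripts apart had a median of 444 bases in the 99 genes, against 1128 bases in the other ranked genes, and was under 100 bases in 20 of the 99. Exons of 24 of the genes overlapped exons of a gene on the opposite strand and those of 9 a gene on the same strand. The sources used here do not say that strand was used in quantification, so reads from such overlaps may not be told apart. The overlap on the opposite strand was 1575 bases in Ptp99A (with CG2321), 210 bases in dati and 169 bases in CG10283. elav shared 673 bases with arg on the opposite strand and 2994 bases with a non-coding RNA on its own strand.

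**Figure D4:**
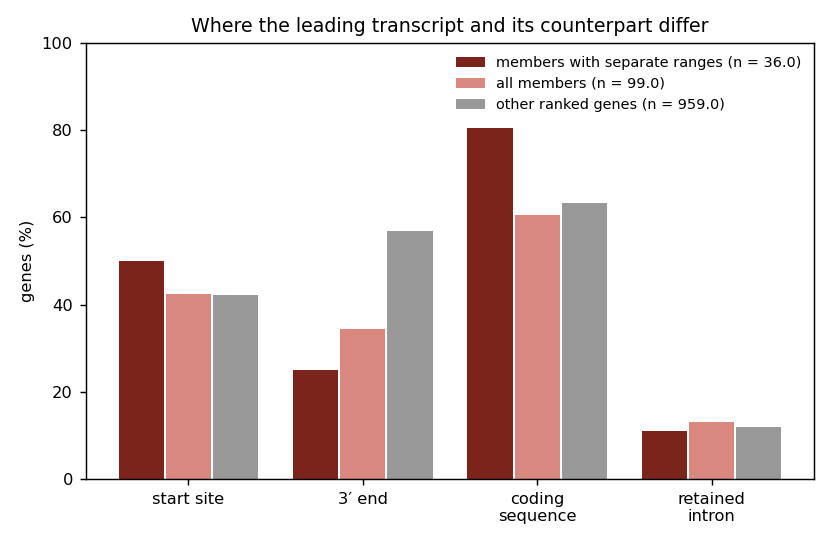
Percent of genes (vertical axis, from 0) whose leading and counterpart transcripts differ at the start site, at the 3′ end, in the coding sequence or by a retained intron. Bars stand for the genes with separate ranges (n = 36), all genes of the set found in the annotation (n = 99) and the other ranked genes (n = 959). The 3′ end differed in 34 of the 99 genes and in 56.8% of the other genes, and this difference was not tested.

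Transcript usage between subtypes of the same class was not a contrast of the ranking, but the same shares entered the class means. Calls are therefore given apart for genes whose ranking pair left out the class compared. The shares of that class still took part in the choice of the pair, so these calls are a description as well. A diffSplice F test per gene in limma, adjusted by the Benjamini-Hochberg method over 3660 genes, called 30 of the 100 genes in at least 1 of 5 subtype pairs, against 9.23% of all genes tested and 13.2% of the ranked genes tested. By pair, 24 genes were called in γd against γm+d (6.89% of all genes), 4 in α/βp against α/βs (1.45%) and 8 in α/βp against α/βc (2.32%). These counts are a description: of the 24 genes called in γ, 20 had γ in the ranking pair, and 11 of the 20 kept less than 50% of the class difference without both γd libraries.

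Where the class was outside the ranking pair, 4 of 15 genes were called in γd against γm+d, 3 of 46 in α/βp against α/βs and 4 of 46 in α/βp against α/βc. None of the 100 was called by limma in α′/β′m against α′/β′ap+m, where 0.0273% of all genes were called and 6 of the 100 had an unadjusted p under 0.05. None was called in α/βs against α/βc either, where 0.191% of all genes were called and 9 of the 100 had an unadjusted p under 0.05, and a test on arcsine-transformed shares called 0 in both pairs as well. The usage test missed most of the changes planted in simulated data, so a pair without calls is not shown to be alike. On arcsine-transformed shares, combined per gene by the Simes method, 8 of the 100 genes were called in all.

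**Figure D5:**
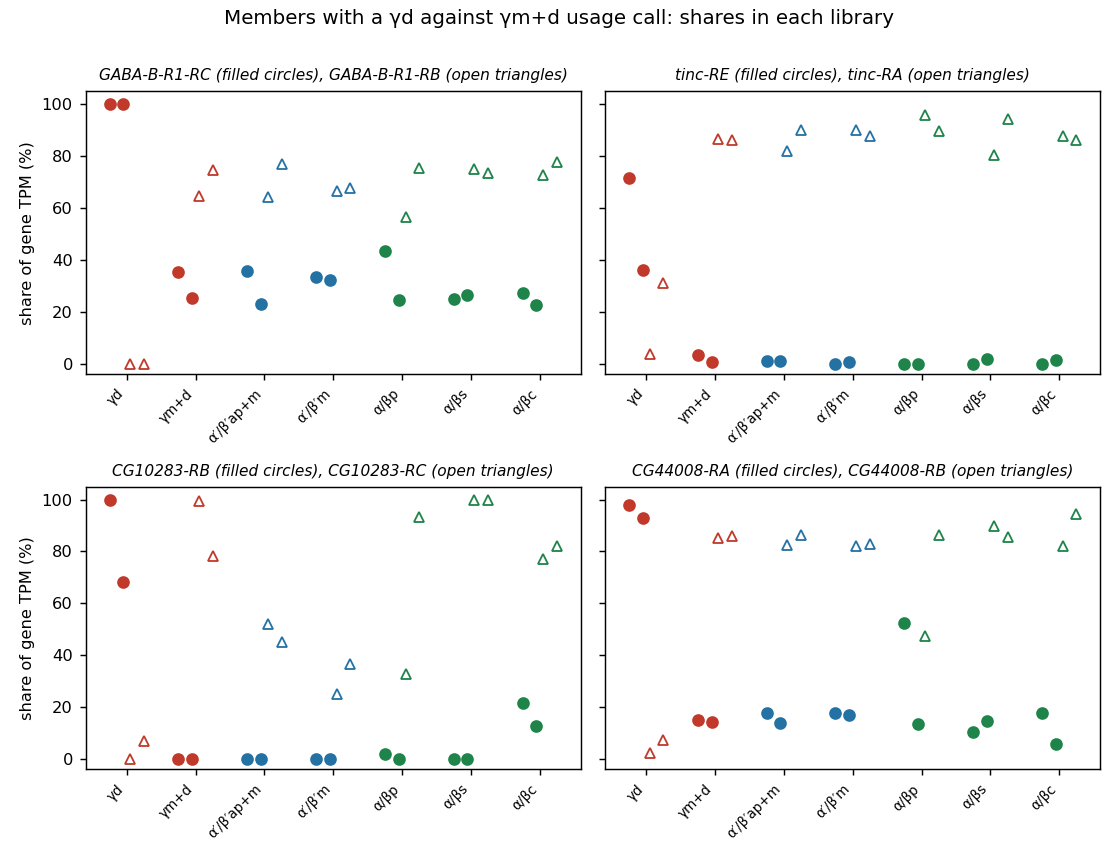
Share of 2 transcripts (percent of the gene's TPM, vertical axis) in each of the 14 libraries, ordered by subtype, for GABA-B-R1, tinc, CG10283 and CG44008, with 1 transcript as filled circles, the other as open triangles and colours for the classes γ (red), α′/β′ (blue) and α/β (green). In GABA-B-R1 the γd libraries are at 100% for GABA-B-R1-RC, and the other 12 libraries lie between 22.4% and 43.4%.

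Of the genes ranked without γ, CG10283 and CG32264 had a transcript with a higher share in γd than in any other subtype. Adjusted p-values given beside transcript shares are those of the F test of the whole gene. CG10283-RB took 100% and 68.1% in γd and 0% in both γm+d libraries (limma adjusted p = 0.00105, at most 0.0376 under 22 alternatives). CG32264-RG took 43.2% and 13.1% in γd and 0% in both γm+d libraries (limma adjusted p = 1.17e-05, held in 21 of 22 alternatives). In the other 10 libraries CG10283-RB reached 21.5% (α/βc replicate 1) and CG32264-RG reached 5.49% (α/βc replicate 2).

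CG42346-RC took 0% and 11% in γd, against 60.3% and 75.6% in γm+d (limma adjusted p = 0.0337), and Task6-RF took 0.00849% and 0% in γd, against 16.4% and 31.8% in γm+d (limma adjusted p = 0.00805). In both the γd libraries were below both γm+d libraries, and the calls ended without γm+d replicate 2 and, in CG42346, without any of 6 other libraries as well. The γd libraries also had fewer genes above 0 (5632 and 7601) than all libraries outside γd and α/βp, and the part of this in their calls was not tested.

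The γd values of genes with γ in the ranking pair are a description as well. Among these genes, GABA-B-R1 had all of its TPM in GABA-B-R1-RC in both γd libraries, against 35.4% and 25.3% in the γm+d libraries. GABA-B-R1-RB was listed at 0 in γd, against 64.6% and 74.7% in γm+d and 56.6% to 77.6% in the other 10 libraries, so both γd libraries stood apart from all others. The gene as a whole was at 200 and 162 TPM in γd, against 315 and 294 TPM in γm+d. The 2 transcripts have the same coding sequence of 2526 bases and differ at the 3′ end, where GABA-B-R1-RC has 720 bases of its own (chromosome 2L, 15016331 to 15034704, plus strand).

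CG44008-RA took 97.8% and 92.8% in γd, against 14.8% and 14.2% in γm+d. tinc-RA took 3.63% and 31.3% in γd, against 86.6% and 86.1% in γm+d, and dac-RD was listed at 0 in both γd libraries, against 44.3% and 45.7% in γm+d. In each of these genes every γd library was on the same side of every γm+d library, and without both γd libraries the class difference that ranked the gene was 2.23 points in GABA-B-R1, -2.06 in CG44008, -2.69 in tinc and 6.58 in dac. The other genes of this kind with a usage call in γ were 2mit, sick, Abl, CG1965, Rab3-GEF, Ncoa6, Kul, CG2246, CG32495, GSS, Vap33, lig, CG7990, unc80 and Unc-115a, with GSS and CG32495 again as 1 observation, and each of these 15 calls ended without at least 1 library.

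In α/β, the calls set α/βp apart. sick-RN took 0% and 1.93% in α/βp, against 18.5% and 21.6% in α/βs and 39.6% and 33.2% in α/βc (limma adjusted p = 0.00921 against α/βs and 9.18e-05 against α/βc). The call against α/βc held under all 22 alternatives, with an adjusted p of at most 0.038, and that against α/βs ended without α/βp replicate 1 or either α/βs library. lig-RK, which had the same values as lig-RL, took 48.3% and 18.8% in α/βp and was listed at 0 in both α/βs and both α/βc libraries. The F test of lig gave a limma adjusted p of 0.000803 and 0.000864, and the limma test of lig-RK alone gave 0.0109 and 0.0204. The F test counted the equal values of lig-RK and lig-RL as 2 transcripts. Both calls of lig ended without α/βp replicate 1, among other libraries.

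norpA-RB took 18.6% and 19.9% in α/βp and was listed at 0 in α/βc (limma adjusted p = 0.0105), and the call ended without α/βp replicate 1 or either α/βc library. CG15312-RC was listed at 0 in α/βp, against 25.9% and 22.0% in α/βs and 11.9% and 28.2% in α/βc (limma adjusted p = 0.0311 and 0.0356), and each of these 2 calls ended without at least 1 library. sick, lig, norpA and CG15312 were all ranked by γ against α′/β′.

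Of the α/β libraries, α/βp replicate 2 had the highest summed markers of other cells. The photoreceptor list, which holds norpA itself, summed to 2113 and 4188 TPM in α/βp, against 2148 and 1661 TPM in α/βs and 1400 and 1610 TPM in α/βc. The fat body list summed to 1758 and 6117 TPM in α/βp, against 2466 and 1644 TPM in α/βs and 1948 and 2199 TPM in α/βc, and the muscle list to 411 and 1132 TPM in α/βp, against at most 445 TPM in the other 4. α/βp replicate 1 had the fewest genes after γd replicate 1, and the part of this and of the markers in the α/βp calls was not tested.

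Of the genes with α/β in the ranking pair, Rbp6-RC took 41.8% and 25.7% in α/βp and Csp-RE took 85.1% and 30.8%, and both were listed at 0 in the α/βc libraries. sei-RB took 0% and 2.06% in α/βp, against 57.6% and 47.6% in α/βc. These 3 genes and CG1090 had a usage call in α/βp against α/βc, and CG1090 also against α/βs, and each call ended without at least 1 library.

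At the level of whole genes, 21 of the 100 differed at least 2-fold between classes at an adjusted p under 0.05 in limma, against 7.06% of 8646 genes tested and 13.1% of the ranked genes. These contrasts are the ones on which the genes were ranked, so the counts are a description. By pair, 5 were higher and 4 lower in γ than in α′/β′, where 2.82% of all genes were called (1.4% higher and 1.42% lower). In γ against α/β 3 were higher and 5 lower, where 3.1% of all genes were called (1.43% higher and 1.67% lower). In α′/β′ against α/β 6 were higher and 8 lower, where 4.89% were called (2.3% higher and 2.59% lower). The median size of the log2 difference was 0.40, 0.39 and 0.38 in these pairs, against 0.61, 0.57 and 0.52 over all genes tested. The genes tested needed 10 TPM in only 1 library and the set 50 TPM in all 14, so nothing is read from this contrast. No 2-fold call was made in 79 of the 100 genes, dati, Ptp99A, bru3, sick and mub among them. The level of bru3 differed within α/β, at 4668 and 2944 TPM in α/βp, against 1075 to 1574 TPM in α/βs and α/βc.

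mamo had the largest difference in level. It was at 2969 ± 1138 TPM in γ and 4752 ± 1517 TPM in α′/β′ (SD, n = 4 each), against 136 ± 95.6 TPM in α/β (n = 6), a log2 difference of 4.58 (SE 0.399, limma adjusted p = 1.67e-06) for γ and 5.50 (limma adjusted p = 9.97e-08) for α′/β′. Rbp6 was at 2147 ± 942 TPM in γ and 2326 ± 419 TPM in α′/β′, against 358 ± 316 TPM in α/β, with log2 differences of 2.77 and 3.21 (limma adjusted p = 0.00124 and 0.000158). fru was higher in γ, at 2632 ± 663 TPM, against 381 ± 149 TPM in α′/β′ and 784 ± 521 TPM in α/β, with log2 differences of 2.70 and 1.89 (limma adjusted p = 0.00584 and 0.0365), of which the second was lost when any of 8 single libraries was left out.

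Other genes of the set were lower in γ. DOR averaged 88.1 TPM in γ, against 376 TPM in α′/β′ and 339 TPM in α/β (log2 differences of -1.90 and -1.75, limma adjusted p = 0.000479 and 0.000419). GlcAT-P averaged 508 TPM in γ, against 1316 TPM in α′/β′ and 1310 TPM in α/β (-1.42 and -1.34, limma adjusted p = 0.00148 and 0.00104). Task6 averaged 182 TPM in γ and 258 TPM in α′/β′, against 648 TPM in α/β (-1.69 and -1.33, limma adjusted p = 0.00178 and 0.00891). Under median-ratio scaling the GlcAT-P differences were -0.80 and -0.92 (limma adjusted p = 0.216 and 0.129), and its calls ended. The other genes called were igl, CG10283, Ten-a, Akap200, 2mit, rad, CG9813, CG14989, Rbp, norpA, CG42540, Taf4, MCU, pum and CG42492. Many of these calls rested on single libraries. The call was lost when any of 10 single libraries was left out in CG42540 (α′/β′ against α/β), 9 in norpA, 7 in Taf4, 6 in Akap200, 5 in CG42492 (γ against α′/β′), 4 in igl and 4 in rad. It was also lost in CG14989 without either α′/β′ap+m library, in pum without γd replicate 1 or γm+d replicate 2, in Ten-a without α/βp replicate 1, in Rbp (α′/β′ against α/β) without α′/β′m replicate 2 and in 2mit (γ against α/β) without γm+d replicate 1.

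The list called splicing regulators here holds 56 genes of RNA-binding and related proteins, not all of which are known to act on isoform choice. Of the 56, 38 were among the ranked genes. Of these, bru3, Rbp6, elav and glo were in the set. Of the 55 regulators tested, 8 differed between classes at the gene level, against 7.06% of all genes tested and 13.1% of the ranked genes. No excess is read from this count. By pair, 3 were higher and 1 lower in γ than in α′/β′, where 2.82% of all genes were called. In γ against α/β 3 were higher and 0 lower (3.1% of all genes), and in α′/β′ against α/β 3 were higher and 4 lower (4.89%). The other Bruno genes were low in α′/β′. bru1 was at 324 ± 133 TPM in γ, 52.8 ± 15.6 TPM in α′/β′ and 317 ± 107 TPM in α/β (log2 difference 2.89, SE 0.333, limma adjusted p = 6.61e-05 for γ minus α′/β′, and -2.81, limma adjusted p = 7.81e-06 for α′/β′ minus α/β). bru2 averaged 393 TPM in γ, 17.9 TPM in α′/β′ and 811 TPM in α/β (4.85 and -5.73, limma adjusted p = 7.47e-05 and 1.17e-06). The Musashi gene msi was highest in α′/β′, with 52.6 TPM in γ, 583 TPM in α′/β′ and 89.4 TPM in α/β (-3.39 and 2.87, limma adjusted p = 0.000143 and 0.00013).

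The RNA-binding protein gene Imp was highest in γ, at 1554 TPM, against 263 TPM in α′/β′ and 86.9 TPM in α/β (log2 differences of 2.57 and 4.21, limma adjusted p = 0.00285 and 5.67e-06). It was also higher in α′/β′ than in α/β (1.64, limma adjusted p = 0.0257), a call lost when any of 7 single libraries was left out. Rbfox1 averaged 344 TPM in α′/β′, against 791 TPM in α/β (-1.25, limma adjusted p = 0.000489). heph, the fly polypyrimidine tract binding protein gene, averaged 402 TPM in α′/β′, against 1290 TPM in α/β (-1.49, limma adjusted p = 0.039), and the nuclear poly(A)-binding protein gene Pabp2 averaged 454 TPM in γ, against 193 TPM in α/β (1.21, limma adjusted p = 0.0167). The call of heph was lost when any of 9 single libraries was left out and that of Pabp2 without either γd library. Whether any of these levels bears on the isoforms was not tested.

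Across functional lists, the set held 26 of 326 listed and ranked genes (7.98%), against 9.36% of all ranked genes. By list it held 4 of 38 splicing regulators, 2 of 4 factors of RNA 3′ ends and export, 3 of 29 channels, 1 of 22 receptors, 5 of 36 presynaptic genes, 2 of 35 surface recognition genes, 2 of 41 cytoskeletal genes, 4 of 66 signalling genes and 4 of 59 transcription and chromatin genes. The list of 3′ end factors rests on 4 ranked genes.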

How the data were processed

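TAPIN-seq libraries of nuclear RNA from 7 Kenyon cell subtypes (14 libraries) had been quantified by the authors, who trimmed 5 bases from the start of the forward read, ran kallisto against the Ensembl release 91 transcripts of BDGP6 with spike-in and reporter sequences, removed those and ribosomal RNA, and deposited TPM per transcript and summed per gene, renormalised to a fixed total. Amplified cDNA can lose rare transcripts, and nuclear RNA holds unspliced RNA, which can be assigned to transcripts with retained introns. The deposited TPM keep no depth, and the study's table of read numbers was not used here, so intervals and floors could not be given, and the study's count model could not be repeated: limma was run on log2(TPM + 1), and fold changes on that scale understate low genes. The authors' tables of subtype and class means were not used, and there were 0 columns without a sample.

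Members of the set, gene lists and tests were chosen with earlier results of these data known. Shares and ranks were computed in Python 3.11.15 (pandas 2.3.3, numpy 2.4.6, scipy 1.17.1, matplotlib 3.10.9). Features reaching 10 TPM in 1 library or more were quantile normalised and fitted with limma 3.58.1 in R 4.3.3, with 1 mean per class (genes) or subtype (transcripts, diffSplice F test), all 14 libraries sharing 1 variance, two-sided tests and Benjamini-Hochberg adjustment over all genes tested. Calls needed an adjusted p under 0.05 and, for genes, at least 2-fold. Each step was tested on simulated data, where the gene step found most of the planted changes, whereas the usage step missed most of them and made a few false calls. Transcript structures and coordinates (BDGP6, dm6) came from Ensembl release 115, later than the release quantified. CG42268 was not matched there. rad, CG12950, Gie, DOR, CG42492, CG32495 and GSS are listed there as rsh, side-VII, Arl8, TP53INP, OtopLa, Gss2 and Gss1.

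Named are the first 30 of the ranking, genes with separate class ranges (the 15 widest gaps with the value in every library), every gene with a usage call, genes in the functional lists, the 3 just inside and outside the limit, and splicing regulators with a call. One gene that this rule names is counted but not reported here. Alternatives were other pseudocounts (0.1 and 5), no quantile normalisation, other filters, class medians, arcsine-transformed shares combined by the Simes method, coding sequences summed, a replicate block and leaving out each library.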

Additional observations from a re-analysis of the deposited data

Results flagged for a closer look

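In the 15 genes with the widest gaps, 45 sets of a class's libraries were examined for a library far from the others of its class, and 5 were found, where chance gives about 1 in 20. igl-RC took 95.9% in α′/β′m replicate 2, which was 26.1 points above the next α′/β′ library. mub-RM took 19.8% in α′/β′m replicate 1, the lowest of the class by 6.05 points. In α/βp replicate 1, a library with 6534 genes above 0, CG42540-RC took 13.8%, the lowest α/β value by 19.9 points, and Ten-a-RO took 22.9%, the lowest by 27.8 points. Taf4-RG took 0.0194% in α/βc replicate 2 and was listed at 0 in the other 5 α/β libraries, a set in which any value above 0 stands apart, so that 4 are left to set against chance.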

How the results depend on the processing

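Of the 100 genes, 53 were among the first 100 when a gene needed at least 100 TPM in every library, 20 when it needed a mean of 50 TPM, and 58 when transcripts with the same coding sequence were summed. By an alternative chosen after seeing the data, 54 were among them without the 2 libraries with the fewest genes and 42 without both γd libraries, and leaving out each library gave 61 to 93, lowest without γd replicate 2 (61) and replicate 1 (63). Separate ranges (alternatives added after seeing the data) were found in 36 to 62 genes when a library was left out, most without γm+d replicate 2, in 36 to 39 under the other alternatives that kept all 100 genes in the ranking, in 30 of the 82 genes that stayed in the ranking with coding sequences summed and in 24 of the 53 that stayed with at least 100 TPM. Usage calls within classes numbered 30, but 8 on arcsine-transformed shares with the Simes method, which changed both the scale and the test, and 12 to 62 when a library was left out. The count was 12 without γm+d replicate 2, 18 without γm+d replicate 1, 16 without either α′/β′ap+m library, 52 without α/βp replicate 2 and 62 without γd replicate 2. Where 1 library of a subtype was left, it was assumed to vary like the others. Gene-level calls ranged over 16 to 20 when a library was left out and 14 to 23 otherwise (21 in the set), and those of splicing regulators over 6 to 9 and 7 to 10 (8 listed).

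Replicate numbers did not pair the libraries: deviations of same-numbered libraries correlated between -0.0637 and 0.218 over 21 subtype pairs, with 3 above 0.1. With a replicate block 38 genes had usage calls, 21 gene-level calls and 8 regulators gene-level calls. Of 989 gene-level calls recomputed, 885 kept their side of the threshold, the rest lost it and 0 reversed direction. Of 792 usage calls, 534 kept their side of the threshold and 258 lost it. The F test of usage has no direction, so a reversal could not be counted there. Of 312 recomputed share differences in the 15 genes with the widest gaps, those of igl and bru3 moved when coding sequences were summed. In the whole set, 18 of the 82 genes that stayed in the ranking under this summing kept less than 50% of their difference. Read depth was not used here, and the fewest genes were seen in γd and α/βp replicate 1.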
